A study of Mus musculus with 18 samples.

Results

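The cell cycle genes described here are 45 listed members, 21 of DNA replication and 24 of mitosis, chosen by gene name. Of these, 32 hold numeric values in the deposited table, 15 replication members and 17 mitosis members, out of 10792 genes with values among 47729 listed. The 13 members without values are Mcm7, Tk1, Gins2, Cdc45, Cdt1 and Ccne2 among the replication members and Ccna2, Ccnb1, Cks2, Kif20a, Bub1, Nusap1 and Prc1 among the mitosis members, and they are not analysed here. Replication and mitosis members are treated separately throughout.

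Messenger RNA was measured by RNA sequencing in satellite cells, which are muscle stem cells, of C57BL/6 mice aged 8.5 to 9 months. The cells were sorted from hind-limb muscle as VCAM1+ CD31- CD45- Sca1-. Non-activated cells, read as those of uninjured animals, gave 3 libraries from virgin mice and 3 from pregnant mice, and activated cells, read as those of muscle pierced many times with a 23-gauge needle, gave 6 libraries from virgin mice and 6 from pregnant mice. The kit for uninjured animals took total RNA depleted of ribosomal RNA, the kit for injured animals took poly-A RNA, and activation and kit therefore cannot be told apart. The labels give no time after injury, no stage of pregnancy and no link from library to animal, so the p values reflect how far these libraries vary, which may be technical.

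Total counts per library ranged from 14043324 to 24336842. Within a group, Pearson r between libraries across genes was 0.977 to 0.994 for activated and 0.873 to 0.949 for non-activated cells, where genes are not independent replicates. Of 10 satellite cell markers, 8 had values. Pax7, which defines these cells, had normalized counts of 11241 to 20831 in non-activated and 4555 to 8159 in activated cells. Myod1 went the other way, at 1295 to 1403 in non-activated and 8680 to 10767 in activated cells of virgin mice. In activated cells 4 of the 8 were higher and 3 lower in virgin mice, and 3 and 4 in pregnant mice (limma adjusted p under 0.05). Of 19 leukocyte markers, 6 had values. In every sample a lower level can mean fewer cycling cells or less RNA per cycling cell, and these cannot be told apart in bulk libraries.

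Replication genes act before and during S phase, when licensing factors load the MCM helicase onto origins, ribonucleotide reductase and thymidylate synthase supply nucleotides, and the PCNA clamp holds the polymerase on DNA. Mitosis genes act from G2 onward, when cyclin B and Cdk1 drive entry into mitosis, kinesins and kinetochore proteins build and attach the spindle, and Cdc20 directs the anaphase promoting complex. Textbook accounts assign the first set largely to E2F factors in G1 and S phase. They assign the second to the MuvB complex with B-Myb and FoxM1 in G2 and M phase through CHR elements. Promoters of the second set often hold CCAAT boxes as well, which are separate elements. Resting satellite cells are in a reversible G0 state and enter the cycle after muscle injury.

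The promoters of the members are shown as a description of both sets, and no link from a motif to a level was tested. RefSeq promoters of build GRCm38.p6, 250 bases before to 50 bases after the annotated start, were given for 38 of the 45 members, 18 replication and 20 mitosis members. Both strands were searched for the CHR element (TTTGAA or TTCGAA), the CCAAT box (CCAAT) and an E2F site (TTTCGCGC, TTTGGCGC or TTTCCCGC), and overlapping matches were each counted. A CHR match was in 15 of 20 mitosis promoters and 4 of 18 replication promoters, beside 19.23% of all 32851 promoters in the table. A CCAAT match was in 18 of 20 mitosis and 11 of 18 replication promoters, beside 37.41% of all promoters. An E2F match was in 6 of 18 replication promoters, those of Mcm3, Mcm5, Mcm6, Mcm7, Cdc6 and Cdt1, and in 1 of 20 mitosis promoters, that of Cdk1, beside 1.84% of all promoters. A CHR and a CCAAT match stood together in 15 of 20 mitosis and 4 of 18 replication promoters, beside 7.52% of all. These matches are a description with no test, and the promoters of Rrm2, Ccne1, E2f1, Tyms and Dut, all replication members, held none of the E2F words searched.

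The following stretches of 180 bases are written 5' to 3' along the gene, with matches to any of the 3 motifs in capitals. Of the replication members, Mcm6 is shown for its 3 E2F matches, Cdc6 as the member whose activation change differed most between pregnant and virgin mice, and Rrm2 as the called member with a CCAAT box alone.
Mcm6 (chr1:128359676-128359855, minus strand): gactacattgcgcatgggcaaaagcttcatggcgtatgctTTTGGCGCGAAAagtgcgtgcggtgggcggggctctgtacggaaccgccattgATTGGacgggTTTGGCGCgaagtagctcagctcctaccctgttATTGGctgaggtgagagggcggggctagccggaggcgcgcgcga
Cdc6 (chr11:98908001-98908180, plus strand): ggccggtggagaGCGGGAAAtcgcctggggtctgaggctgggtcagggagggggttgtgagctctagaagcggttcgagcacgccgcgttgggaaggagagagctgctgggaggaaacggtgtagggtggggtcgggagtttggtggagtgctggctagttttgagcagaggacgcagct
Rrm2 (chr12:24708104-24708283, plus strand): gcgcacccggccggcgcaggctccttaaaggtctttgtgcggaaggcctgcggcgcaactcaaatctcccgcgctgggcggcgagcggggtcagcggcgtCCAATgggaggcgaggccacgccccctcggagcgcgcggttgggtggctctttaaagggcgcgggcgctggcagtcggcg
Of the mitosis members, Ccnb2 and Cdc20 are shown for CCAAT boxes spaced ahead of or around a CHR element near the start. Cenpf and Kif11 are shown as the members called higher with pregnancy in activated cells. Those calls held in only 4 and 3 of 12 fits that left out a library.
Ccnb2 (chr9:70421525-70421704, minus strand): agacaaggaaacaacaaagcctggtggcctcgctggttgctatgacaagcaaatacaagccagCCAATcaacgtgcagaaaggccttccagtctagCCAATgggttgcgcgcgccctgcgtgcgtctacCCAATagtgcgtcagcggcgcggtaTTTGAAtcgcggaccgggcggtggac
Cdc20 (chr4:118437314-118437493, minus strand): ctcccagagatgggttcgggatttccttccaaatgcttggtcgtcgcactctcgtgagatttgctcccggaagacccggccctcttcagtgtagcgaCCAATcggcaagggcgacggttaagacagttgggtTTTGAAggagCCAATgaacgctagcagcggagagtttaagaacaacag
Cenpf (chr1:189688057-189688236, minus strand): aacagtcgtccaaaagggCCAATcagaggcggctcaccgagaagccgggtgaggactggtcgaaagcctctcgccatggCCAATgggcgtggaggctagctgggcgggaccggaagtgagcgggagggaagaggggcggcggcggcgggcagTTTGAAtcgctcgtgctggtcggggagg
Kif11 (chr19:37376232-37376411, plus strand): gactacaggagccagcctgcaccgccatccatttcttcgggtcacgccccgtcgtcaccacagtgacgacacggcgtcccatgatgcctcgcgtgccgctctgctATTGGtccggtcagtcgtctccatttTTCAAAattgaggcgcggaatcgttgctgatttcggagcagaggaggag
Read from these windows, Mcm6 carries E2F words, 2 CCAAT boxes and no CHR element. Ccnb2, Cdc20, Cenpf and Kif11 carry a CHR element with 1 to 3 CCAAT boxes and no E2F word. CCAAT boxes thus occur in windows of both sets. Matches on the opposite strand appear as their reverse complements. These are both motifs of Kif11, both CCAAT boxes and an E2F word of Mcm6, and the E2F word of Cdc6.

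The first comparison asked how far activated cells differ from non-activated cells. In virgin mice all 15 replication members and all 17 mitosis members with values were higher in activated cells, and every activated library lay above every non-activated library in all 32. The median log2 change was 3.24 over the replication members and 4.37 over the mitosis members, beside 0.17 over all 10751 genes tested. Of all genes, 39% were called higher and 33.6% lower (limma, Benjamini-Hochberg adjusted p under 0.05), and 36.3% had every activated library above every non-activated library. Levels are normalized counts, the authors' counts divided by a size factor per library, and log2 changes are on the scale of log2(normalized count + 1).

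**Figure D1:**
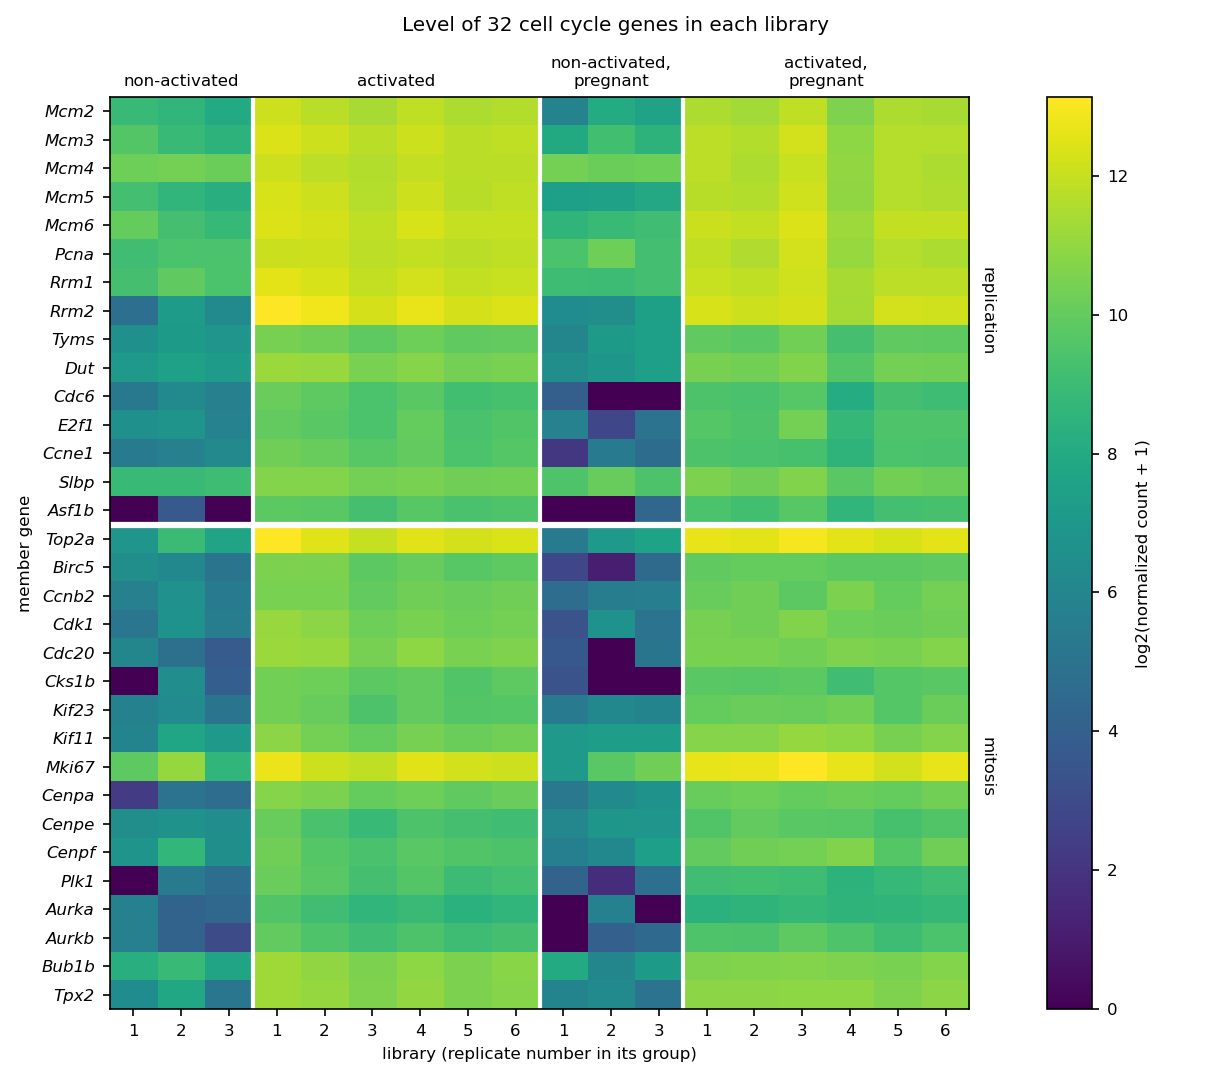
Colour gives log2(normalized count + 1) for each of the 32 members with values (rows, replication above the white line and mitosis below) in each of the 18 libraries (columns, grouped as in the study). Every member is brighter in all activated than in all non-activated libraries, save Slbp in pregnant mice, and the replication block is dimmer in activated, pregnant library 4 than in the other libraries of its group.

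Among the licensing and helicase genes, Mcm6, a subunit of the replicative helicase (ENSMUSG00000026355, GRCm38 chromosome 1, 128331590 to 128359664), had normalized counts of 1034, 608 and 440 in the 3 non-activated libraries and a lowest, median and highest value of 3697, 4536 and 5537 in the 6 activated ones. Its log2 change was 2.79 ± 0.24 (SE, limma adjusted p = 4.38e-09). The 5 MCM subunits with values changed by 1.57 to 3.28, the smallest in Mcm4, which already stood at 1163 to 1348 in non-activated cells. Cdc6, which loads the helicase onto origins (ENSMUSG00000017499, chromosome 11, 98907801 to 98923940), had 39.3, 76.2 and 52.6 in non-activated cells and 577, 780 and 1128 as the lowest, median and highest in activated cells, a log2 change of 3.83 ± 0.62.

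In nucleotide supply the widest gap was that of Rrm2, the regulated subunit of ribonucleotide reductase (ENSMUSG00000020649, chromosome 12, 24708241 to 24714146). It stood at 26.5, 150.04 and 78.2 in non-activated libraries and at 4963, 6134 and 8915 (lowest, median, highest) in activated ones. The change was 6.51 ± 0.37 (SE, limma adjusted p = 1.52e-11). Its partner subunit Rrm1 changed by 2.63, Pcna, the sliding clamp, by 2.62, Tyms, thymidylate synthase, by 3.24 and Dut, the dUTPase, by 3.45.

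Of the G1 to S regulators, Ccne1, cyclin E1 (ENSMUSG00000002068, chromosome 7, 38097984 to 38107534), had 43.2, 52.3 and 72.5 in non-activated cells and 689, 920 and 1254 (lowest, median, highest) in activated cells, a log2 change of 4.06 ± 0.45. E2f1, a transcription factor of S phase genes, had 94.2, 111 and 54.8 against 648, 814 and 1052, a change of 3.29 ± 0.46. In both genes the lowest activated library was far above the highest non-activated one.

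Histone supply held the largest and the smallest change of the replication members. Asf1b, a histone chaperone of dividing cells (ENSMUSG00000005470, chromosome 8, 83955507 to 83970197), had normalized counts of 0, 11.5 and 0 in non-activated libraries, 15 reads in all, against 610, 785 and 920 (lowest, median, highest) in activated ones. Its fitted change of 8.35 ± 0.80 rests on those few reads and moved from 6.68 to 9.04 as the pseudocount went from 5 to 0.5. A count of 0 allows up to 3 counts, which is 2.13 to 3.53 normalized counts in the non-activated libraries, for counting error only. Slbp, which binds the stem loop of histone mRNA (ENSMUSG00000004642, chromosome 5, 33634952 to 33652574), had 481, 474 and 528 against 1226, 1383 and 1649, a change of 1.52 ± 0.17 (SE, limma adjusted p = 1.22e-07).

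Mitosis members had lower summed levels than replication members in all 6 non-activated libraries and a larger median change. Cks1b, a subunit that binds cyclin-dependent kinases (ENSMUSG00000028044, chromosome 3, 89415472 to 89418383), had 0, 86.2 and 14.2 in non-activated cells and 762, 972 and 1308 (lowest, median, highest) in activated cells, with a fitted change of 6.51 ± 0.91 (SE, limma adjusted p = 3.11e-06). Cdc20 had 63.8, 27.7 and 12.8 against 1409, 1734 and 2314, a change of 5.91 ± 0.68. The cyclin Ccnb2 and the kinase Cdk1 changed by 4.37 and 4.73.

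Cenpa, the centromeric histone H3 variant (ENSMUSG00000029177, chromosome 5, 30666777 to 30674830), had 3.93, 31.6 and 24.9 in non-activated and 970, 1167 and 1707 (lowest, median, highest) in activated libraries, a change of 6.27 ± 0.42 (SE, limma adjusted p = 1.21e-10). The kinetochore proteins Cenpe and Cenpf changed by 2.83 and 2.33, the latter the smallest change of the 17. Plk1, a kinase of mitotic entry (ENSMUSG00000030867, chromosome 7, 122159439 to 122169873), had 0, 41.6 and 25.6 against 511, 693 and 1102, a change of 6.11 ± 0.82. Among the other mitotic kinases, Aurka, of spindle poles, changed by 4.11 and Aurkb, of the chromosomal passenger complex, by 5.08.

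The most abundant members of the remaining mitosis roles followed the same direction. Mki67, the proliferation antigen Ki-67 that coats mitotic chromosomes, had 936, 2162 and 403 in non-activated and 3799, 4647 and 6922 (lowest, median, highest) in activated libraries, a change of 2.41 ± 0.51. Tpx2, a spindle assembly factor, had 82.5, 234 and 34.1 against 1507, 1890 and 2434, a change of 4.41 ± 0.38. Bub1b, a spindle checkpoint kinase, had 297, 457 and 201 against 1472, 1859 and 2450, a change of 2.59 ± 0.30.

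Non-activated libraries of virgin mice were not alike in these genes. Library 2 had the highest level of Top2a, the topoisomerase that untangles sister chromosomes, at 496 against 116 and 205, and of Mki67 at 2162 against 936 and 403. The summed mitosis level was 4663 in library 2 and 2094 and 1410 in libraries 1 and 3, whereas the summed replication level was 4953 to 6123. The coefficient of variation over the 3 libraries had a median of 71.6% over the mitosis members and 26.8% over the replication members, and 24.1% and 18.5% over the 6 activated libraries.

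In pregnant mice all 15 replication and all 17 mitosis members were again higher in activated cells, with median log2 changes of 3.35 and 5.10 beside 0.21 over all genes. Of all genes, 40.3% were called higher and 32.6% lower. Every activated library lay above every non-activated one in 14 of 15 replication members and 17 of 17 mitosis members, beside 33.6% of all genes. The exception was Slbp, at 739, 1099 and 715 in non-activated cells of pregnant mice and 882, 1281 and 1590 (lowest, median, highest) in activated ones. Its change of 0.59 ± 0.17 (SE, limma adjusted p = 0.00361) was no longer called when each group was given its own spread.

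The largest replication changes in pregnant mice were those of Cdc6, Asf1b and Rrm2. Cdc6 had 14.6, 0 and 0 in non-activated cells, 17 reads in all, and 275, 641 and 854 (lowest, median, highest) in activated cells, a fitted change of 7.86 ± 0.62 that ran from 6.21 to 8.54 with the pseudocount. Asf1b had 0, 0 and 18.9 against 405, 605 and 856, a fitted change of 7.81 ± 0.80. Rrm2 had 81.5, 89.4 and 179 against 2639, 4662 and 5088, a change of 5.29 ± 0.37.

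The largest mitosis changes there were those of Cks1b, Cdc20 and Birc5. Cks1b had 9.44, 0 and 0 in non-activated cells, 11 reads in all, and 550, 857 and 907 (lowest, median, highest) in activated cells, a fitted change of 8.52 ± 0.91. Cdc20 had 11.2, 0 and 33.3 against 1290, 1444 and 1646, a change of 7.61 ± 0.68. Birc5, survivin, of the chromosomal passenger complex (ENSMUSG00000017716, chromosome 11, 117849251 to 117855743), had 6.01, 1.18 and 22.2 against 903, 979 and 1033, a change of 7.10 ± 0.47 (SE, limma adjusted p = 1.33e-10). In all 3 no activated library came near a non-activated one, and the size of the fitted change rests on few reads.

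**Figure D2:**
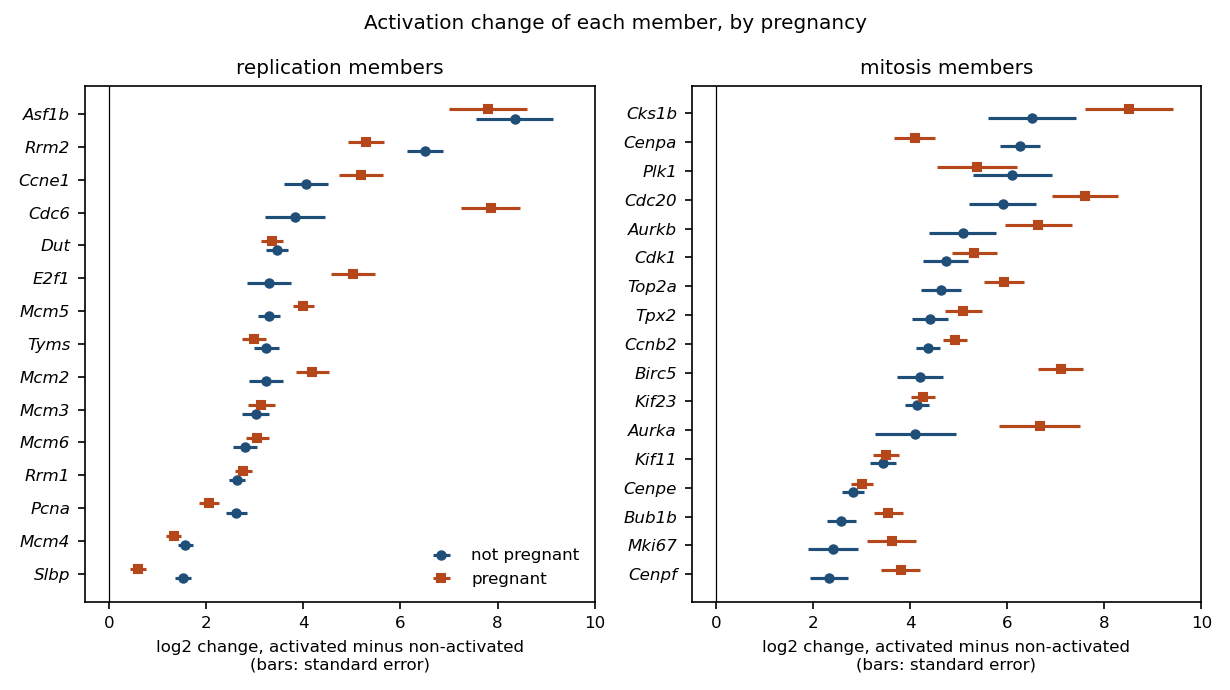
Points give the log2 change from non-activated to activated cells for each member, circles for virgin mice and squares for pregnant mice, with the standard error of the limma fit as bars. All 64 changes lie to the right of 0, from 0.59 in Slbp of pregnant mice to 8.52 in Cks1b of pregnant mice.

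The rest of the cell cycle machinery was read from lists of other genes. Of 37 other replication genes with values, 32 were higher and 1 lower in activated cells of virgin mice, and 34 and 0 in pregnant mice. Mcm10, a replication initiation factor, changed by 4.28 and Fbxo5, an inhibitor of the anaphase promoting complex, by 4.61, and the 1 lower gene was Prim2, the large primase subunit. Of 45 other mitosis genes, 39 were higher and 2 lower in virgin mice and 41 and 2 in pregnant mice. Kif22, a chromosome-arm kinesin, changed by 6.38 in virgin and 7.66 in pregnant mice, and the 2 lower genes were the same in both arms, Zwint (-1.43 and -1.75), a kinetochore scaffold protein, and Cenpc1 (-1.42 and -1.60), a centromere protein.

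Lists outside the core machinery are given beside the 39% of all genes called higher and 33.6% called lower in virgin mice, and 40.3% and 32.6% in pregnant mice. Of 17 condensin and cohesin genes, 7 were higher and 6 lower in virgin and 9 and 7 in pregnant mice, near those shares. In virgin mice these included Esco2, which acetylates cohesin, at 5.53 and Nipbl, the cohesin loader, at -2.28. Of 13 genes of the E2F, DREAM and MuvB factors, 5 were higher and 7 lower in virgin and 5 and 6 in pregnant mice, with E2f2 at 2.21 and the MuvB subunit Lin52 at -2.96 in virgin mice. Of 10 CDK inhibitors and pocket proteins, 6 were higher and 1 lower in virgin and 6 and 0 in pregnant mice, and of 8 G1 cyclins and kinases, 4 and 1 in virgin and 4 and 2 in pregnant mice. The anaphase promoting complex had 11 of 13 higher and 2 lower in virgin mice, over a range of -0.67 to 1.61, and 8 higher and 1 lower in pregnant mice.

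Markers of other cells also differed between activated and non-activated cells. In virgin mice 4 of 6 leukocyte markers and 9 of 12 fibro-adipogenic markers were called higher and none lower, and summed leukocyte levels were 172 to 284 normalized counts in non-activated and 802 to 1200 in activated libraries. In pregnant mice 6 of 6 and 9 of 12 were called higher, with summed leukocyte levels of 67.7 to 199.9 and 1693 to 7570. In virgin mice 3 of 7 endothelial, 7 of 10 smooth muscle and pericyte and 3 of 8 Schwann cell markers were called higher. In each of these lists 1 was called lower. In pregnant mice the counts higher were 4, 6 and 5 and the counts lower 1, 0 and 0. The part of these other cells in the activation changes of the members was not tested.

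The second comparison, between pregnant and virgin mice within activated cells, used 1 kit and 6 libraries on each side. All 15 replication members had a negative log2 change, beside 5448 of all 10499 genes tested. The median was -0.33 beside -0.01 over all genes. Members within a library are not independent, so these signs are not separate observations. Only 2 of the 15, Ccne1 and Rrm2, were called lower and none was called higher. Of the mitosis members 2, Cenpf and Kif11, were called higher and 1, Plk1, lower, with 7 positive and 10 negative changes and a median of -0.08. Of all genes, 14% were called higher and 13.4% lower, and 2 of 15 lower among the replication members and 2 higher and 1 lower of 17 among the mitosis members are near that background.

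Ccne1 had 689, 920 and 1254 (lowest, median, highest) in virgin and 378, 654 and 699 in pregnant mice. Its log2 change was -0.62 ± 0.16 (SE, limma adjusted p = 0.0159), and the ranges met only between the lowest virgin library and the highest pregnant library. Ccne1 was still called when any 1 of the 12 libraries was left out. Rrm2 had 4963, 6134 and 8915 against 2639, 4662 and 5088, a change of -0.54 ± 0.17 (SE, limma adjusted p = 0.0319), and was called in 9 of the 12 fits that left out a library.

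Cenpf, a kinetochore and nuclear matrix protein (ENSMUSG00000026605, chromosome 1, 189640606 to 189688086), had 651, 784 and 1244 in virgin and 825, 1247 and 1610 in pregnant mice. The change was 0.53 ± 0.17 (SE, limma adjusted p = 0.0305). Kif11, the kinesin that separates spindle poles (ENSMUSG00000012443, chromosome 19, 37376403 to 37421859), had 1030, 1320 and 1831 against 1368, 1724 and 2116, a change of 0.39 ± 0.13 (SE, limma adjusted p = 0.0359). The ranges overlap in both, and Cenpf was called in 4 and Kif11 in 3 of the 12 fits that left out a library.

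Plk1 went against Cenpf and Kif11, with 511, 693 and 1102 in virgin and 360, 540 and 564 in pregnant mice, a change of -0.54 ± 0.17 (SE, limma adjusted p = 0.036), called in 7 of the 12 fits. Among mitosis members that did not pass, Mki67 had a change of 0.39 ± 0.15 (limma adjusted p = 0.0662) and Cks1b one of -0.32 ± 0.14 (limma adjusted p = 0.099). By role, the changes of all 4 cyclin, kinase subunit and Cdc20 members and of 4 of the 5 kinase, checkpoint and passenger members were negative, and those of both chromosome structure members were positive. Unadjusted p was under 0.05 in 4 of 15 replication and 6 of 17 mitosis members, both a smaller share than the 4326 of 10499 genes at that level.

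In the authors' deposited table no member had an adjusted p under 0.05 in this comparison, where 7.06% of all genes were higher and 2.54% lower at that threshold. The direction in the authors' deposited table matched for all 32 members. With all 4 groups in 1 limma fit, none of the 5 calls remained.

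**Figure D3:**
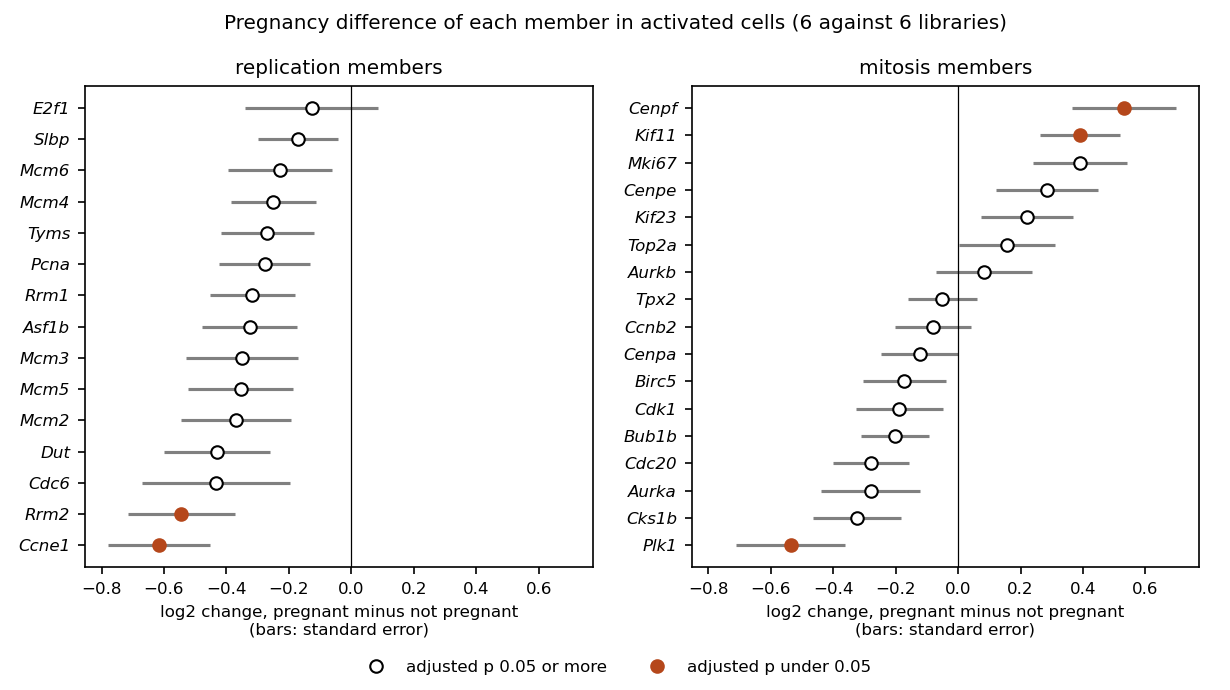
Points give the log2 change from virgin to pregnant mice in activated cells for each member, with the standard error of the limma fit as bars and filled points for an adjusted p under 0.05. The replication members all lie left of 0, from -0.62 to -0.13, and the mitosis members on both sides, from -0.54 to 0.53.

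Markers of some other cells moved in the same comparison. All 6 leukocyte markers with values were called higher in activated cells of pregnant mice, with a summed normalized count of 802 to 1200 in virgin and 1693 to 7570 in pregnant mice, and none of them was at 0. Ptprc, which encodes the CD45 used in the sort, had no value here. Of 12 fibro-adipogenic markers, 8 were called higher and 1 lower, with summed levels of 77764 to 99983 and 114337 to 183942. Of 10 smooth muscle and pericyte markers, 2 were called higher and 0 lower, beside 14% and 13.4% of all genes. Of 7 endothelial and 8 Schwann cell markers, 0 were called. Satellite cell markers summed to 52773 to 86962 and 58686 to 92021, and 1 of 8, Vcam1, was called higher. The part of these other cells in the values of the members was not tested.

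Counts of other cell cycle lists are given beside 14% of all genes called higher and 13.4% lower. Signs are given beside 5051 positive and 5448 negative changes of all 10499 genes. Of 10 CDK inhibitors and pocket proteins, 0 were higher and 3 lower, and of 13 genes of the anaphase promoting complex, 0 and 3. Of 17 condensin and cohesin genes, 2 were higher and 0 lower, with 15 positive changes. Of 37 other replication genes, 0 were higher and 7 lower, beside 14% and 13.4% of all genes, with 32 negative changes and a median of -0.23. The called genes were Rpa3, Pold2, Orc2, Dtymk, Orc5, Ung and Gins4, and their number was 2 without activated library 4 of pregnant mice (median -0.12), 3 without activated library 1 of virgin mice and 11 without activated library 3 of pregnant mice. Of 45 other mitosis genes, 2 were higher, Cenpc1 and Hjurp, and 1 lower, Spc24, with 26 positive and 19 negative changes and a median of 0.04. Of the E2F, DREAM and MuvB factors 4 of 13 were lower, with E2f6, a repressor of the E2F family, at -0.34 and E2f4 at -0.27. Of 8 G1 cyclins and kinases, 1 was higher and 2 lower, with 6 negative changes and a median of -0.16. The lower genes were Ccnh and Mnat1, subunits of the CDK-activating kinase, both at -0.21, and Ccnd2, cyclin D2, was higher by 0.91 ± 0.15 (SE, limma adjusted p = 0.00145), at 122 to 219 in virgin and 230 to 364 in pregnant mice.

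One activated library of pregnant mice, replicate 4, stood apart from its group. It was the lowest of 6 in 15 of 15 replication members, beside 29.4% of all genes tested, at 0.417 to 0.722 times the median of the other 5, with a median ratio of 0.595. Cdc6 had the lowest ratio, at 275 against 539 to 854 in the other 5 libraries, and Rrm1 the highest, at 2691 against 3578 to 4708. In the mitosis members the median ratio was 1.02, and the library was lowest in 3 of 17, Cks1b, Plk1 and Birc5, and highest in 4. Its Ccnb2 level of 1475 was above the 894 to 1354 of the others, and Cenpf stood at 1610 against 825 to 1349.

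Among the other lists, this library was lowest in 36 of 37 other replication genes, at a median of 0.706 of the other libraries, and was lowest in 16 and highest in 10 of 45 other mitosis genes, at a median of 0.938. Its summed replication level was 21153 normalized counts against 32828 to 45702, and its summed mitosis level 30151 against 24452 to 34673. The ratio of the mitosis to the replication sum was 1.425 in library 4, 0.710 to 0.918 in the other 5 activated libraries of pregnant mice and 0.615 to 0.729 in the 6 of virgin mice. So the ratio was above 0.729, a limit taken from these same values, in 5 of 6 libraries of pregnant mice. Library 5, at 0.710, was the exception. Such sums are weighted to abundant members, and in library 3 of pregnant mice Top2a and Mki67 had 8046 and 8980 of a mitosis sum of 34673. The mean log2 level of the mitosis members had a group mean of 10.32 in activated cells of virgin and 10.31 of pregnant mice. For the replication members it was 11.10 and 10.76. Library 4 also had the highest summed fibro-adipogenic level of the 12 activated libraries, 183942, and the part of this in the result was not tested. That sum is weighted to abundant genes. In activated cells of pregnant mice Col1a1 had 23736 to 39071 and Col1a2 25335 to 41279, against 483 to 780 for Pdgfra. Gsn and Col3a1 already had 13333 to 16243 and 9517 to 14619 in non-activated cells of virgin mice.

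**Figure D4:**
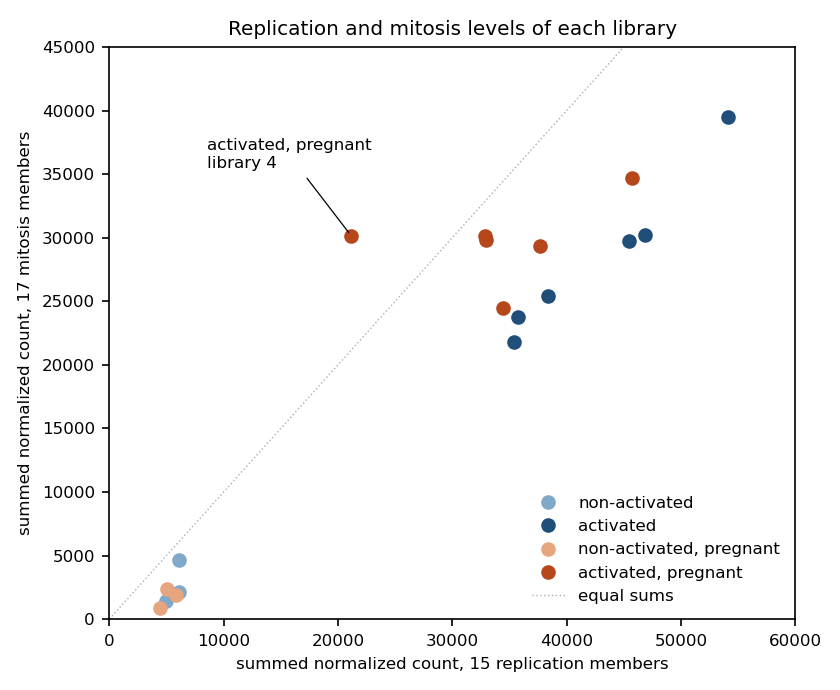
Each point is a library, with the summed normalized count of the 15 replication members on the horizontal axis and of the 17 mitosis members on the vertical axis, and the dotted line marks equal sums. The activated libraries lie below the line except library 4 of pregnant mice, at 21153 and 30151, and the non-activated libraries sit near the origin, at no more than 6123 and 4663.

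Without library 4, 14 of 15 replication members kept a negative pregnancy change in activated cells and the median moved from -0.33 to -0.21. The 2 calls, Ccne1 and Rrm2, held, and the 3 mitosis calls were lost, beside 1220 of 10511 genes higher and 1064 lower. This alternative was looked at again after the data were seen. Activated library 1 of virgin mice was the highest of 6 in 13 of 15 replication and 17 of 17 mitosis members, beside 31.8% of all genes. Activated library 3 of pregnant mice was the highest in 13 of 15 replication members, beside 19.9% of all genes, but in 6 and the lowest in 3 of 17 mitosis members. Without the latter library, 5 replication members were called lower, Ccne1, Rrm2, Mcm5, Asf1b and Pcna, with a median of -0.43, and of the mitosis members only Plk1 was called, beside 1282 of 10513 genes higher and 1211 lower. Without activated library 1 of virgin mice, Ccne1 was the 1 replication member called lower, and 4 mitosis members, Kif11, Cenpf, Mki67 and Cenpe, were called higher, beside 1497 of 10523 genes higher and 1311 lower.

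**Figure D5:**
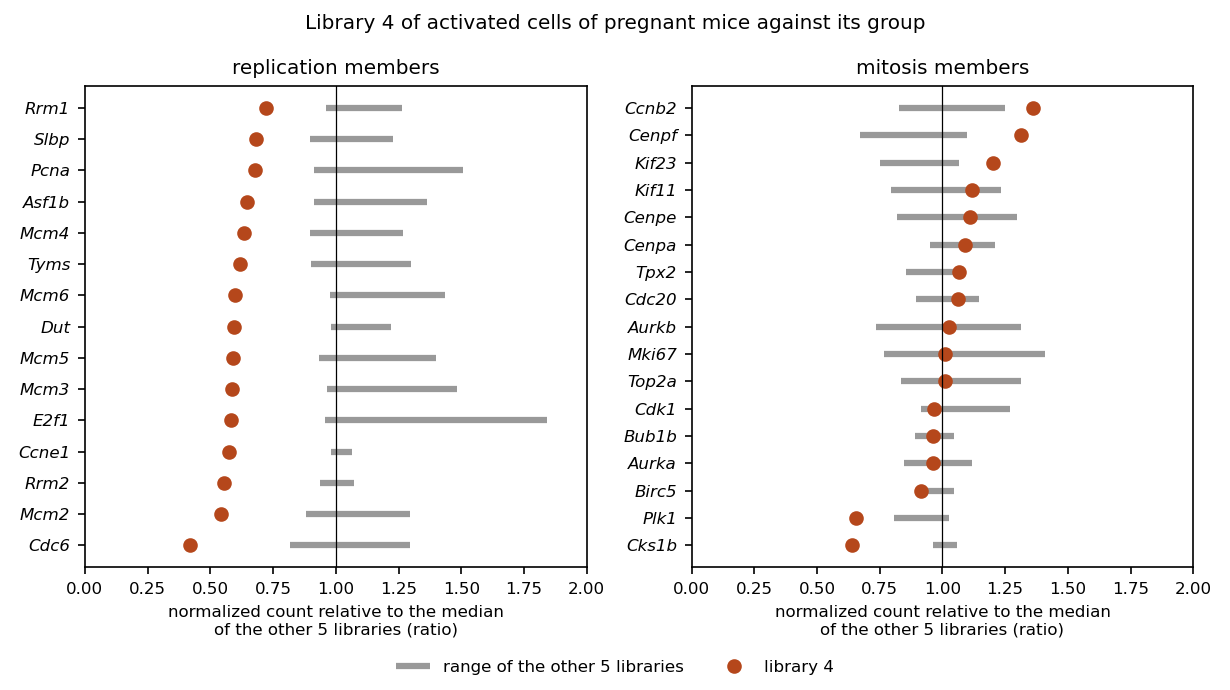
For each member, the point gives the normalized count of activated, pregnant library 4 divided by the median of the other 5 libraries of its group, and the grey bar the range of those 5 on the same scale. The points of all 15 replication members lie left of the bars, at 0.417 to 0.722, and those of most mitosis members lie on or beside them around 1.

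The third comparison was between pregnant and virgin mice in non-activated cells, with 3 libraries on each side. No member was called among 14 replication and 16 mitosis members tested by limma, with Asf1b and Cks1b too low to test, beside 2.88% of all genes called higher and 1.74% lower. Unadjusted p was under 0.05 in 4 replication members, Mcm2, Mcm5, Cdc6 and Slbp, and in 2 mitosis members, Birc5 and Bub1b, beside 1903 of all 10447 genes tested. The median log2 change was -0.46 over the replication and -0.80 over the mitosis members, and -0.02 over all genes. Changes were negative in 11 of 14 and 11 of 16 members, beside 5407 of 10447 genes.

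Mcm5 had 584, 402 and 299 in virgin and 169, 183 and 242 in pregnant mice, a change of -1.07 ± 0.37 (SE, limma adjusted p = 0.123). Slbp had 481, 474 and 528 against 739, 1099 and 715, a change of 0.76 ± 0.25 (SE, limma adjusted p = 0.111). In both genes the libraries of the groups did not overlap. Over the members tested, every pregnant library lay above every virgin library in 1 replication and 1 mitosis member, and below in 4 and 1. No such share is given for all genes, and with 3 libraries on each side no conclusion is drawn from it. E2f1 had 94.2, 111 and 54.8 against 55.8, 5.88 and 31.1, a change of -1.86 ± 0.97 (limma adjusted p = 0.331).

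The spread of lowly counted members limits this comparison. Plk1 had 0, 41.6 and 25.6 in virgin and 17.2, 2.35 and 26.6 in pregnant mice, and its change of 0.19 had a standard error of 1.97. In the authors' deposited table, 1 replication member was higher and 5 lower and 1 mitosis member was higher and 4 lower, beside 12.9% of all genes higher and 13.2% lower. The direction in the authors' deposited table matched for 28 of the 30 members tested. In a limma fit of all 4 groups, 6 of 15 replication members (1 higher, 5 lower) and 4 of 17 mitosis members (1 higher, 3 lower) were called, beside 1210 of 10751 genes higher and 1275 lower. These members were Ccne1, Mcm2, Slbp, Mcm5, Cdc6, E2f1, Birc5, Aurka, Cenpa and Bub1b.

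The last comparison asked whether the activation change differed between pregnant and virgin mice. The difference was called in 2 of 15 replication members and 2 of 17 mitosis members, 1 in each direction in each class, beside 7.83% of all genes higher and 7.24% lower. Cdc6 changed more in pregnant mice, by 4.03 ± 0.87 (SE, limma adjusted p = 0.00608), and so did Birc5, by 2.90 ± 0.66 (SE, limma adjusted p = 0.00836). Slbp changed less, by -0.93 ± 0.23 (SE, limma adjusted p = 0.0137), and so did Cenpa, by -2.17 ± 0.59 (SE, limma adjusted p = 0.021).

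The values of these 4 members, which the interaction fit picked from the same data, are given by group. In activated cells Cdc6, Birc5, Slbp and Cenpa overlapped between virgin and pregnant mice, at 577 to 1128 and 275 to 854 for Cdc6 and at 970 to 1707 and 1026 to 1306 for Cenpa. In non-activated cells they did not overlap, with Cdc6 at 39.3 to 76.2 against 0 to 14.6, Birc5 at 32 to 90.3 against 1.18 to 22.2, Cenpa at 3.93 to 31.6 against 36.9 to 103 and Slbp at 474 to 528 against 715 to 1099. There were 3 libraries on each side there and 6 on each side in activated cells, so overlap is not comparable between them. No share of genes without overlap is given for all genes, and no conclusion is drawn from the overlap. Compared directly in non-activated cells, none of the 4 was called (limma adjusted p = 0.191 for Cdc6, 0.242 for Birc5, 0.34 for Cenpa and 0.111 for Slbp). The Cdc6 difference fell from 4.70 to 2.48 as the pseudocount went from 0.5 to 5. When each group was given its own spread none of the 4 was called, and with voom weights on the counts only Slbp was.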

How the data were processed

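The 18 libraries fall into 4 groups. Tools named per the submitters' processing notes are TopHat2 2.0.14, cutadapt 1.12, DESeq2 1.22.1 and HTSeq 0.6.0, with build GRCm38 and no settings given in the sources used here. Per the file headers, the deposited table holds read counts, normalized counts and the authors' fold changes on a log2 scale with adjusted p-values. Genes lacking a value carry a question mark, so columns mix numbers with text; a count model, planned for columns accepted as counts, was replaced by limma. The rule that left genes without values is not given in the sources used here. The table's 6 columns of 3 quadriceps libraries were not used.

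Values of log2(normalized count + 1) were fitted with limma 3.58.1 (limma-trend, R 4.3.3) where a gene reached 10 in a number of libraries equal to the smallest group, with Benjamini-Hochberg adjusted p under 0.05 over all tested genes as the call. Activation and interaction fits held all 4 groups, pregnancy fits the 2 compared. The fits were run on simulated data with known changes in a subset of genes and, for activation, equal means in both kits. Activation goes with the kit in these data, so the simulation cannot vouch for the activation calls. Members and lists were chosen with earlier results of these data known. Library values were given, per class and comparison, for the 3 called members with the largest changes, for called members opposite to most of their class, and for the most abundant member of each role; the other lists could name the 2 most changed called genes per direction. Further genes, such as those of short called lists, were chosen after their values were seen. Alternatives covered pseudocount, filter, scaling, weights, groups fitted, genomic span, the replicate block and each library left out.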

Additional observations from a re-analysis of the deposited data

Results flagged for a closer look

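Chance flags about 1 in 20 groups as holding a library far from the others, and 7 of 70 tests did so here. These tests share libraries, and members within a library are not independent, so the 7 cannot be set against chance. In activated cells of virgin mice, library 1 was far above the rest for Cenpe at 1078.1 normalized counts and Cenpf at 1244.1. In activated cells of pregnant mice, library 4 was far below the rest for Rrm2 at 2639.0, Ccne1 at 378.0 and Cks1b at 549.9, and far above it in the ratio of mitosis to replication sums at 1.425. Library 5 of the same group was far below the rest for Tpx2 at 1555.8.

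The activation change differed between pregnant and virgin mice in 4 of 32 members by the interaction term of the limma fit, beside 7.83% of all genes higher and 7.24% lower, and none of the 4 was called with a spread per group. The difference, on the log2 scale, was 4.03 for Cdc6, 2.90 for Birc5, -0.93 for Slbp and -2.17 for Cenpa.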

How the results depend on the processing

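All 32 activation calls in virgin mice, and all 32 in pregnant mice except Slbp with a spread per group, held under every alternative run, single libraries left out included. Other scalings moved the median of all genes in the activation comparisons, by 0.19 and 0.29 with library totals, 0.21 and 0.25 with the upper quartile and 0.18 in pregnant mice with the trend in genomic span taken out, and the members moved along with it. Members span a median of 15.3 kb (replication) and 16.3 kb (mitosis), all genes tested 27.5 kb. For pregnancy in activated cells, the 4-group fit called 0 replication members, 0 mitosis members and 578 genes in place of 2, 3 and 2883; removing the span trend left 1 replication member, without Rrm2; leaving out single libraries gave 1 to 5 replication and 0 to 4 mitosis members. For pregnancy in non-activated cells, the 4-group fit called 6 replication members, 4 mitosis members and 2485 genes in place of 0, 0 and 483; removing the span trend left 121 genes, and leaving out single libraries gave 237 to 441. For the interaction, voom weights left 1 replication and 0 mitosis members, a spread per group 0, 0 and 12 genes in place of 1620, and removing the span trend 1 mitosis member; leaving out single libraries gave 2 to 4 and 2 to 5. The cause of these shifts was not tested. A fit with a second count model was not run, since it depended on columns accepted as counts. Replicate numbers did not pair the libraries, with correlations of -0.204 to 0.162 in activated and -0.038 to -0.026 in non-activated cells and no library matching its own number best; with the replicate block, 2 replication members, 3 mitosis members and 2177 genes were called for pregnancy in activated cells, and no member's call changed in any comparison. In non-activated libraries, members at a few counts limit any fold change.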
